A study of Mus musculus with 6 samples.

Results

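Single-cell TCR libraries of P2+CD4+ T cells held 167 contigs, of 3124 in all, that were named neither as a TCRα (TRA) nor as a TCRβ (TRB) chain but as γ (TRG), δ (TRD) or Multi. A contig is a transcript assembled from the reads of 1 cell barcode, and Multi is the name that Cell Ranger gives to a contig whose annotated segments belong to more than 1 chain. All contigs with these chain names were taken, whether productive or not, and without regard to their counts. Of the 167 contigs, 161 were Multi, 5 were TRG and 1 was TRD, and they lay in 162 of the 1089 cells (barcodes counted in each library).

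The cells came from pooled lymph nodes of AireGW/+ Lyn-/- mice at 9 wk of age, and were sorted as TCRβ+CD4+CD8- cells that bound an I-Ab tetramer carrying P2, a peptide of the retinal protein IRBP. Dataset 1 and dataset 2 are pools of mice with uveitis, and the third library is a pool of mice without uveitis. All 3 groups carry 1 copy of AireGW, a dominant negative allele of a regulator that drives tissue-specific antigens in the thymus, and lack Lyn, an inhibitory Src-family kinase. No treatment is named in the labels. Several mice were pooled per library, so the spread between mice was not measured, and 2 pools against 1 allow no test between mice with and without uveitis. Intervals below are exact 95% Clopper-Pearson or Poisson intervals and cover counting error only.

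An αβ T cell receptor is built from a TRA chain (V and J segments) and a TRB chain (V, D and J segments), whereas γδ T cells use TRG and TRD chains. The TRD locus lies inside the TRA locus, between its V and J segments, so a V segment of the δ locus (TRDV) can be joined by deletion to a TRAJ segment and spliced to the TRA constant segment. The TRB locus has a pair of constant segments, TRBC1 and TRBC2, each behind its own cluster of J segments. Transcripts that start at a J or C segment without a V are known from T cells and encode no receptor.

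Among the Multi contigs, 7 had a listed CDR3, the loop encoded where V and J meet, and in all 7 a TRDV segment had been joined to a TRAJ segment and spliced to TRAC. They are shown because no other contig of the set listed a CDR3, and because 6 of them were listed as productive. Capitals mark bases that match neither the end of the V segment nor the start of the J segment in the GENCODE transcripts of GRCm38. The first 6 are the productive contigs in order of UMIs, and the last was listed as not productive.
TRDV2-2/TRAJ37: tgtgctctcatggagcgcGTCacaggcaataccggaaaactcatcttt
TRDV1/TRAJ52: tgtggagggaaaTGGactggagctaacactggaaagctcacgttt
TRDV1/TRAJ53, first cell: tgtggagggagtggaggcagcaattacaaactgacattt
TRDV1/TRAJ42: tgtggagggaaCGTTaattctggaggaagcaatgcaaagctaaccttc
TRDV1/TRAJ34: tgtggagggGGAGCcttt
TRDV1/TRAJ53, second cell: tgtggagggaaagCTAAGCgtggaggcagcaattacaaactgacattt
TRDV2-1/TRAJ48: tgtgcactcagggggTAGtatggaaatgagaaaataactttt

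All 7 sequences are a whole number of codons long. The last one carries an in-frame stop codon, and that stop lies in the 3 bases that match neither segment. The 5 TRDV1 sequences share their first 9 bases, TGTGGAGGG, and then part, with 0 to 6 unmatched bases before the J segment. The 2 joins of TRDV1 to TRAJ53 differ in these bases, 0 in the first cell and 6 in the second. The CDR3 lengths of the 6 productive contigs ranged from 18 to 48 bases with a median of 46.5, beside a median of 39 and a range of 15 to 72 over the productive TRA contigs of the same library. The shortest, TRDV1/TRAJ34 with 18 bases, held only 4 bases of the J segment within the CDR3, and 9 productive TRA contigs had a CDR3 as short or shorter. Each of the 7 sequences was found in 1 cell only.

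In GRCm38 all these segments lie on chromosome 14. TRDV1 is at chr14:53881612-53882217, TRDV2-1 at chr14:53946073-53946660 and TRDV2-2 at chr14:53960944-53961602. The J segments lie beyond the δ constant gene (TRDC, chr14:54142851-54148868), from TRAJ53 at chr14:54162644-54162709 to TRAJ34 at chr14:54184699-54184756, and TRAC follows at chr14:54220521-54224206. The joins observed span 219915 bases (TRDV2-2 to TRAJ37) to 302481 bases (TRDV1 to TRAJ34) of the germline sequence, an interval that holds the D, J and C segments of the δ locus. No contig of the set named a D segment or TRDC.

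The productive TRDV contigs had as many UMIs as ordinary TCRα chains. The 6 contigs had 48, 22, 14, 9, 8 and 6 UMIs (distinct captured molecules), with a median of 11.5, and the productive TRA contigs of the library had a median of 7. Their median length of 686.5 bases lay beside 676 for productive TRA. These 6 were found without uveitis, where they made up 1.06% (0.389 to 2.29) of the 567 productive TRA and TRDV-TRAC chains. None was found among 205 such chains in dataset 1, which allows a share of up to 1.46%, nor among 357 in dataset 2, which allows up to 0.840%. Both limits lie within the interval without uveitis, and 2 pools against 1 allow no test of a difference. The libraries also differed in depth, with 25.0 UMIs per barcode in dataset 1, 20.4 in dataset 2 and 41.8 without uveitis.

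**Figure D1:**
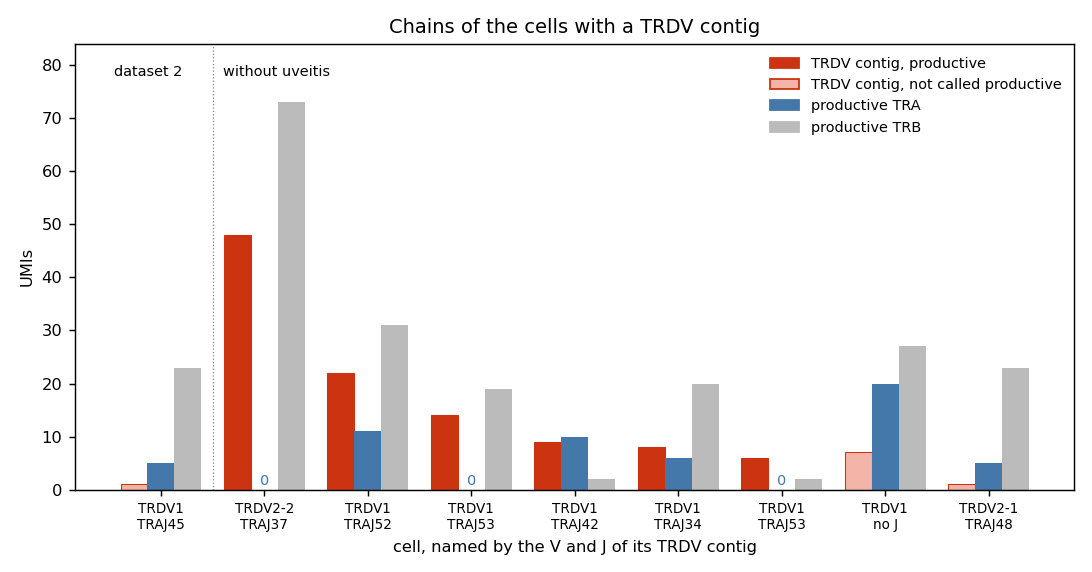
UMIs (y axis) of the TRDV contig, the productive TRA and the productive TRB in each of the 9 cells with a TRDV contig (x axis), 1 from dataset 2 and 8 from the library without uveitis. The bars of 3 cells with a productive TRDV contig show 0 UMIs of productive TRA, and all 9 cells have a productive TRB.

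In 3 of the 6 cells the TRDV contig was the only productive chain of the α type. The cell with TRDV2-2/TRAJ37 had 48 UMIs of it beside 73 UMIs of TRBV13-2/TRBJ2-7. The first TRDV1/TRAJ53 cell had 14 beside 19 of TRBV31/TRBJ1-4, and the second had 6 beside 2 of TRBV2/TRBJ1-1. Each of these cells also listed a TRA contig of 1 to 3 UMIs that was not productive. They are 3 of the 27 cells without uveitis that had a productive TRB and no productive TRA (11.1%), and counting TRDV-TRAC as an α chain would raise the paired cells from 470 to 473.

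The other 3 cells had a productive TRA as well. TRDV1/TRAJ52 had 22 UMIs in a cell with 11 of TRAV19/TRAJ58. TRDV1/TRAJ42 had 9 beside 10 of TRAV14D-2/TRAJ34, and TRDV1/TRAJ34 had 8 beside 6 of TRAV14-2/TRAJ43. In these cells the TRDV chain was thus at a level like that of the TRA or above it, and both were productive. All of these cells were clonotypes of 1 cell in Cell Ranger's own grouping, and only the TRBV31 sequence of the first TRDV1/TRAJ53 cell was found in another cell.

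The remaining 3 TRDV contigs were not called productive. The contig of dataset 2, TRDV1/TRAJ45, had 1 UMI, was full length, and listed no CDR3. Without uveitis, TRDV2-1/TRAJ48 with the stop codon had 1 UMI, and a TRDV1 contig without a J segment had 7 UMIs in a cell with 20 UMIs of TRAV21-DV12/TRAJ57. Segments with a name shared by both loci (TRAV-DV) were handled otherwise: 16 productive contigs of dataset 1, 25 of dataset 2 and 61 without uveitis used one, 7.80%, 7.0% and 10.8% of the productive TRA and TRDV-TRAC chains, and all were listed as TRA. Among these chains the Multi name fell on segments that carry the δ name alone.

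Apart from these, the set was mostly short contigs of low count that named a J and a C segment. Of the 167 contigs, 6 were listed as productive and 1 as not productive, all without uveitis, and the rest carried no call. A V segment was named in 1 contig of 55 in dataset 1, in 2 of 4 in dataset 2 and in 8 of 108 without uveitis. A single UMI stood behind 41 contigs (74.5%) of dataset 1, 2 (50%) of dataset 2 and 62 (57.4%) without uveitis. The median was 1, 2 and 1 UMIs, beside 5, 4 and 7 for productive TRA and 11, 10 and 15 for productive TRB, in the order dataset 1, dataset 2, without uveitis. Contigs without a V segment had medians of 1.5, 2.5 and 2 UMIs for TRA and of 6, 4 and 9 for TRB. A low count was thus shared by TRA contigs that lack a V. The set took 1.77%, 0.134% and 1.88% of the UMIs.

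The uveitis pools differed widely from each other in how many such contigs they held. Per 100 barcodes there were 25.9 contigs (19.5 to 33.8) in dataset 1, 1.10 (0.299 to 2.81) in dataset 2 and 21.1 (17.3 to 25.5) without uveitis, from 55, 4 and 108 contigs in 212, 365 and 512 barcodes. The 2 uveitis pools gave a mean of 13.5 ± 17.6 (SD, n = 2), a spread that covers the value without uveitis. The intervals of dataset 1 and of the library without uveitis overlap, and dataset 2 lies below both. With at least 2 UMIs per contig the values were 6.60, 0.548 and 8.98 per 100 barcodes, so dataset 2 stayed the lowest and the other libraries changed places. TRB contigs that lack a V segment were also fewest in dataset 2, with 44.8, 1.64 and 55.7 per 100 barcodes in the same order of libraries. Total UMIs were 5302, 7439 and 21408, or 25.0, 20.4 and 41.8 per barcode, so dataset 2 also had the fewest UMIs per barcode. The part of depth in these counts was not tested.

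**Figure D2:**
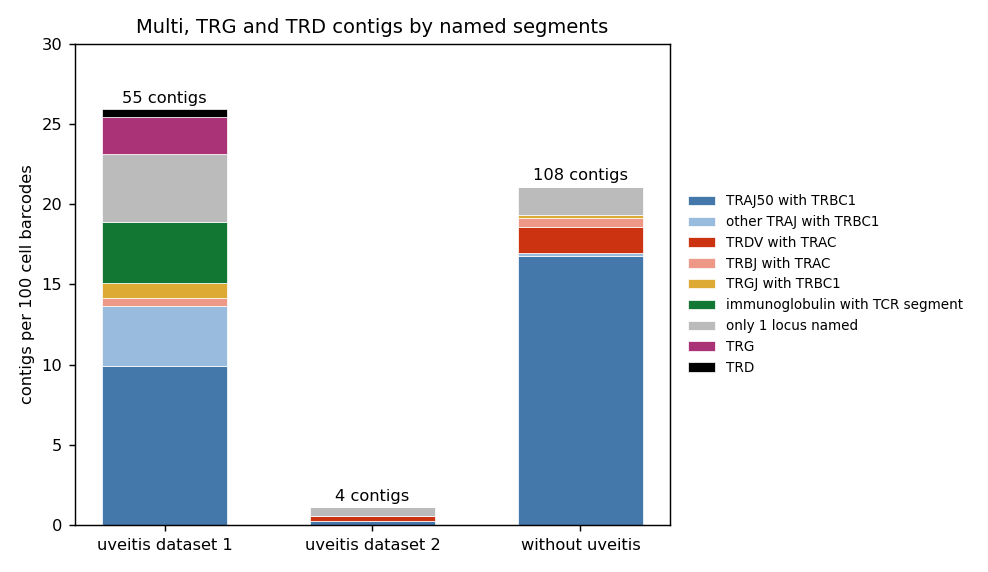
Contigs named Multi, TRG or TRD per 100 cell barcodes (y axis) in each library (x axis), stacked by the loci of their named segments. TRAJ50 with TRBC1 is the largest class in dataset 1 and without uveitis, and contigs named TRG or TRD and contigs with immunoglobulin segments appear in dataset 1 only.

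Where Multi contigs mixed named segments of different TCR loci, the mix was a TRAJ segment with the TRB constant segment in 117 of 133 contigs. Segments of more than 1 TCR locus were named in 32 of 49 Multi contigs of dataset 1 (65.3%, 50.4 to 78.3), in 2 of 4 of dataset 2 and in 99 of 108 without uveitis (91.7%, 84.8 to 96.1). Another 8 in dataset 1 named a TCR and an immunoglobulin segment. For 9, 2 and 9 contigs the listed V, J and C segments came from 1 locus, so the other locus is not visible in the listing. The Multi contigs formed 39 combinations of V, J and C, of which 28 were seen once, 5 were in more than 1 library and none was in all 3.

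A combination of TRAJ50 with TRBC1 and no V segment made up 106 of the 161 Multi contigs, 20 in dataset 1 and 86 without uveitis. TRAJ50 lies at chr14:54167590-54167652, within the TRAJ cluster, and TRBC1 lies on another chromosome, at chr6:41538218-41539881. The TRAJ50 segment is shown, from the GENCODE transcripts of GRCm38, because it is the J segment of these 106 contigs. Capitals mark the bases of the phenylalanine-glycine motif with which J segments end the CDR3.
TRAJ50: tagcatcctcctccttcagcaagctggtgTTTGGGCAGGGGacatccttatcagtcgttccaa

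TRAJ50 shares no run of more than 8 bases with any of 21 TRB C, J or D transcripts. Over all 60 TRAJ segments the longest shared run had a median of 9 bases and a range of 7 to 14. This compares the germline segments alone, and the contig sequences were not used. How the contigs arise was not tested. The TRBC1 name does not separate the constant segments: it was given to all TRB contigs with a TRBJ2 segment and a C segment as well, 267 in dataset 1, 270 in dataset 2 and 610 without uveitis, and TRBC2 was named in none.

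Counted with the 2 contigs that also named a V segment (TRBV21 in dataset 1 and TRBV12-2 in dataset 2), TRAJ50-TRBC1 contigs were found in 21 cells of dataset 1 (9.91%, 6.24 to 14.7), in 1 of dataset 2 (0.274%, 0.00694 to 1.52) and in 86 without uveitis (16.8%, 13.7 to 20.3). TRAJ50 is 1 of 60 TRAJ segments in the GENCODE transcripts, and in TCRα chains of the same libraries its share was small. It was the J segment of 1.45%, 3.62% and 1.77% of the TRA contigs with a J, but of 72.4%, 100% and 98.9% of the 29, 1 and 87 TRAJ-TRBC1 contigs. Dataset 2 had the highest share of TRAJ50 in TRA and the fewest TRAJ50-TRBC1 contigs. Of the 86 cells without uveitis, 4 also had a TRA contig with TRAJ50, and none did in the other libraries. The whole library without uveitis listed 12 TRA contigs with TRAJ50 in 512 barcodes, and the share among its other cells was not counted.

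Most of these cells had an ordinary receptor too, as had most cells without a contig of the set. The latter held a productive TRA and a productive TRB in 86.4% of cases in dataset 1 and 91.8% without uveitis. With TRAJ50-TRBC1, both were present in 16 of 21 cells of dataset 1 (76.2%) and in the cell of dataset 2. Without uveitis they were present in 80 of 86 such cells (93.0%). The cells were no richer in TRB contigs without a V segment, which 44 of 86 (51.2%, 40.1 to 62.1) and 241 of 426 other cells (56.6%, 51.7 to 61.3) had without uveitis. In dataset 1 the shares were 9 of 21 (42.9%) and 86 of 191 (45.0%).

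A TRBJ1 segment, the cluster next to TRBC1, was used by the leading productive TRB of 45 of 84 such cells without uveitis (53.6%, 42.4 to 64.5) and of 141 of 413 other cells (34.1%, 29.6 to 38.9). In dataset 1 it was used by 6 of 19 (31.6%, 12.6 to 56.6) and 32 of 182 (17.6%, 12.3 to 23.9). Counted over distinct TRB sequences instead of cells, the shares were 45.8% (34.0 to 58.0) of 72 and 34.4% (29.4 to 39.6) of 355 without uveitis, and 33.3% of 18 and 24.5% of 106 in dataset 1. The intervals without uveitis thus overlap once each TRB sequence is counted once, and those of dataset 1 overlap either way. Overlap does not show that the shares are equal.

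The count of TRAJ50-TRBC1 was low in nearly all cells. A single UMI was behind 16 contigs in dataset 1 and 50 without uveitis, and 2 to 9 UMIs behind 5 and 33. The 3 contigs with at least 10 UMIs were all without uveitis. The top one had 52 UMIs, 154459 reads and 621 bases, in a cell with 14 UMIs of TRBV2/TRBJ2-7 and 18 of TRAV9N-4/TRAJ42. The next had 38 UMIs in a cell with 37 of TRBV4/TRBJ2-4, and the third had 11 beside 25 of TRBV31/TRBJ1-6. The contig exceeded the productive TRB of its own cell in 3 of 84 cells without uveitis, in none of 19 in dataset 1, and in the cell of dataset 2, where it had 5 UMIs.

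TRAJ50-TRBC1 contigs were also shorter than TRB contigs without a V segment. Their median length was 339 bases in dataset 1 and 309.5 without uveitis, and TRB contigs without a V had medians of 463 and 448. TRA contigs without a V had medians of 511 in dataset 1 and 345.5 without uveitis, so in the latter library they were nearly as short. Lengths under 350 bases were found in 11 of 21 (52.4%) and 57 of 86 (66.3%) of the TRAJ50-TRBC1 contigs, against 0 of 95 and 4 of 285 (1.40%) of the TRB contigs without a V. Some lengths recurred without uveitis, 299 and 325 bases in 6 contigs each and 255 bases in 5, among 62 distinct lengths. A contig shows only as much of a transcript as was assembled, and their sequences were not used here.

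**Figure D3:**
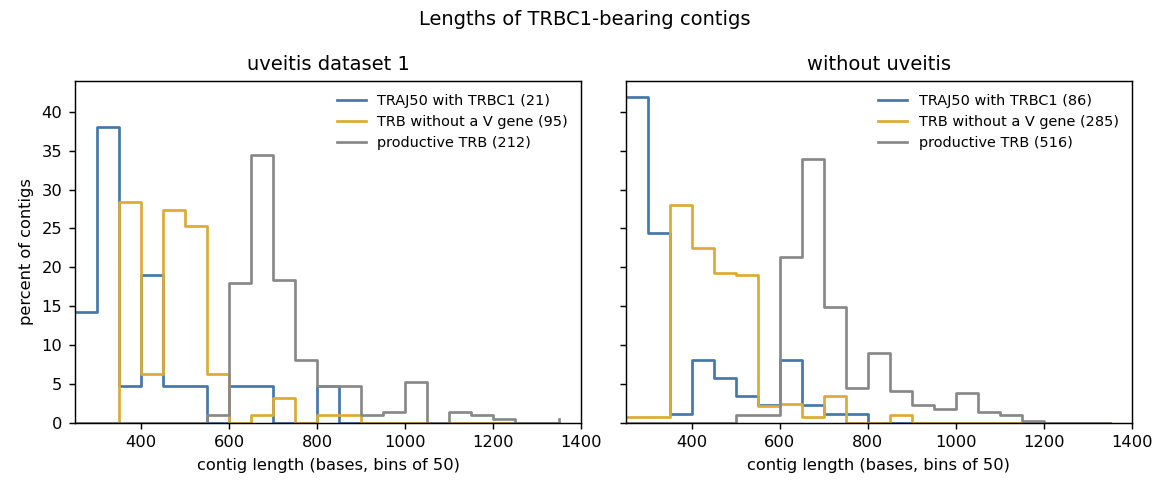
Contig length in bins of 50 bases (x axis) against percent of contigs (y axis) for TRAJ50-TRBC1, TRB without a V segment and productive TRB, in dataset 1 and without uveitis, with the number of contigs in brackets. TRAJ50-TRBC1 peaks below 350 bases, TRB without a V between 350 and 550, and productive TRB between 600 and 750.

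Other contigs that named a TRAJ segment with TRBC1 were 8 in dataset 1, 0 in dataset 2 and 1 without uveitis. TRAJ37-TRBC1 made up 5 of those 8, all with 1 UMI, with 2010 to 4220 reads and 926 to 993 bases, and 4 of the 5 cells had a paired productive receptor. The Multi contig of dataset 1 with the most UMIs was of this kind, TRAJ30-TRBC1 with 10 UMIs, 68390 reads and 417 bases. The reverse mix, a TRBJ segment with TRAC, was named in 1 contig of dataset 1 and 3 without uveitis, of 1 to 3 UMIs. TRAJ17-TRAC (2 in dataset 1 and 3 without uveitis), TRAJ32-TRAC and TRBJ2-5-TRBC1 (1 each in dataset 2 and without uveitis) were found in more than 1 library although their named segments belong to 1 locus.

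TRGJ1, a J segment of the γ locus at chr13:19210343-19210402, was named with TRBC1 in 3 Multi contigs. These were 2 in dataset 1 with 5 and 2 UMIs and 1 without uveitis with 1 UMI. They were short, 304 to 436 bases, and named no V. The reads per UMI of those in dataset 1, 2605 and 10822, were far above those of the contigs named TRG in the same library.

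The contigs named TRG and TRD occurred in dataset 1 only, in 6 cells. The TRD contig named TRDJ1 (chr14:54123138-54123188) and no V or C, with 1 UMI, 359 reads and 712 bases. The TRG contigs were 1 with TRGJ1, 1 with TRGC2, 1 with TRGC4 and 2 with no segment named, of 748 to 833 bases. They had 1 UMI each except for 1 of the unnamed ones, which had 11 UMIs from 1625 reads. None of the 6 named a V segment, and none was productive.

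No barcode had the productive TRG and TRD pair that would mark a γδ T cell. The pair was at 0 of 212 barcodes in dataset 1, 0 of 365 in dataset 2 and 0 of 512 without uveitis, which allows shares of up to 1.42%, 0.822% and 0.586%. A TRGV segment was also named in none. The cell with the TRD contig had a productive TRA (TRAV14N-1, 12 UMIs) and a productive TRB (TRBV12-1, 4 UMIs). Of the 5 TRG cells, none had a productive TRA and 4 had a productive TRB, of 7, 8, 10 and 27 UMIs. The cells had been gated on surface TCRβ, and enrichment targets TRA and TRB, so the libraries limit what could be seen of γ and δ chains. The limits above therefore hold for listed pairs only and do not bound the share of γδ T cells.

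Each of the 5 TRG cells also held a Multi contig, and they are the 5 cells with more than 1 contig of the set. The partners were TRAJ44-IGHG2B, TRAJ46-IGHD, TRAJ50-TRBC1, TRAJ13-TRAC and TRAJ37-TRBC1. Immunoglobulin segments moved with these cells: 4 of the 6 TRG or TRD cells had one in some contig (66.7%, 22.3 to 95.7), and 10 of the other 206 cells did (4.85%, 2.35 to 8.75). Where this RNA came from was not tested. Of the Multi contigs, 8 named a TCR and an immunoglobulin segment, all in dataset 1. Their sequences were not used, so no junction was seen. Among them, 6 named a TRAJ segment with IGHM, IGHD, IGHG2B, IGHG2C or IGLC1, and 2 named IGLJ3 (chr16:19067041-19067078) with TRAC. The longest was TRAJ46-IGHD with 1745 bases and 3 UMIs. A productive TRA and TRB pair was present in 3 of these 8 cells.

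Reads per UMI in dataset 1 are given for groups not planned in advance, some cut from the classes above. The 3 Multi contigs with a TRAJ and no C segment come from the contigs that name 1 locus, which ranged from 395 to 57777. The Multi contigs with an immunoglobulin segment ranged from 304 to 32222. A clean split between groups cut in this way is no test. All 6 TRG and TRD contigs had under 1000 reads per UMI (median 364.5), as had the 6 Multi contigs with an immunoglobulin constant segment (304 to 734) and the 3 with a TRAJ and no C segment. The other 38 Multi contigs without an immunoglobulin segment had none under 1000, with a median of 9217, and the 2 IGLJ3-TRAC contigs had 4667 and 32222. Among TRA-TRAC and TRB-TRBC1 contigs of the library, 3 of 594 (0.505%) were under 1000, with a median of 7147. Low values were not particular to the set: all 8 TRA contigs of the library without a C segment (median 557) and 6 of 32 TRA or TRB contigs with 1 UMI were also under 1000. Without uveitis 2 of 108 Multi contigs were under 1000, with a median of 4704.

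**Figure D4:**
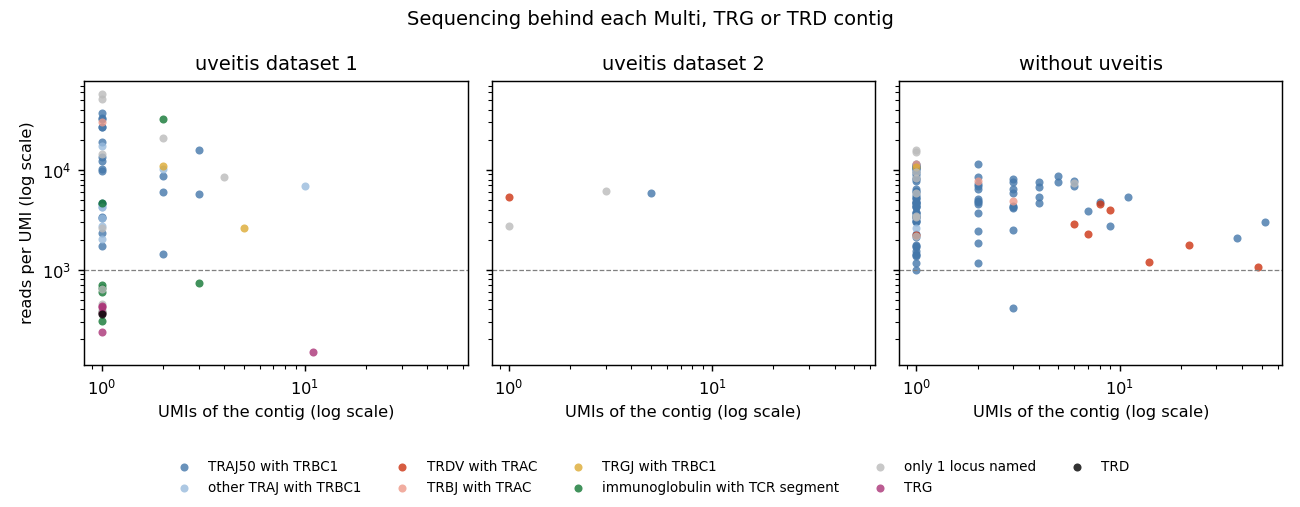
Reads per UMI (y axis, log scale) against UMIs (x axis, log scale) of each of the 167 contigs, by library and named segments, with a dashed line at 1000 reads per UMI. The TRG, TRD and most immunoglobulin-bearing contigs of dataset 1 lie below the line, and 7 of the 8 TRDV contigs without uveitis have 6 to 48 UMIs.

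Most barcodes with a contig of the set held an ordinary αβ receptor. A productive TRA and TRB were both present in 36 of 50 in dataset 1 (72.0%, 57.5 to 83.8), in 3 of 4 in dataset 2 and in 99 of 108 without uveitis (91.7%, 84.8 to 96.1). Among the other barcodes the shares were 140 of 162 (86.4%, 80.2 to 91.3), 321 of 361 (88.9%) and 371 of 404 (91.8%, 88.7 to 94.3). The share was alike without uveitis and 72.0% against 86.4% in dataset 1. There the intervals overlap, which does not show that the shares are equal, and the difference was not tested. Of the 14 unpaired barcodes in dataset 1, 11 had only a productive TRB, 2 only a productive TRA and 1 neither, and 5 of the 14 were the TRG cells. The median UMIs per barcode were 19.5 with and 22 without such a contig in dataset 1, 12 and 16 in dataset 2, and 32.5 and 30.5 without uveitis.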

How the data were processed

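P2+CD4+ T cells were profiled with the 10x Genomics 5′ kit with TCR enrichment. The authors assembled contigs with Cell Ranger against its mouse VDJ reference, and the submitters' processing notes name GRCm38 and mm10. The deposited values used were the counts of reads and UMIs per contig, which are whole numbers without normalization, the contig length in bases, and the listed chain, segments, CDR3 and productive call. The 3 mRNA libraries of the series were not used. All listed contigs were of high confidence in called cells.

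Contigs named Multi, TRG or TRD were taken from each library, and shares were given 95% intervals. A count of 0 was given the share that 3 counts would make. In all, 1 barcode was listed both in dataset 2 and without uveitis, with a TRAJ50-TRBC1 contig in the latter and no CDR3 in common. No step removed droplets with more than 1 cell. Segments were placed by name in GENCODE M21 (GRCm38), 45 of 47, and TRGC2 and TRGC4 were not. Scripts were tested on simulated contig tables. Contigs, classes and lists were chosen with earlier results of these data known. The segments named in the text are every TRG and TRD combination, the 5 most frequent Multi combinations, those in more than 1 library, every productive contig and the contig of each chain name (Multi, TRG or TRD) with the most UMIs in each library, and the other contigs named were chosen after their values were seen. Intervals were computed with scipy 1.17.1, tables with pandas 2.3.3 and numpy 2.4.6 under Python 3.11.15, and figures with matplotlib 3.10.9. No test between conditions was made.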

Additional observations from a re-analysis of the deposited data

Results flagged for a closer look

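Contigs named as immunoglobulin chains or given no chain name lie outside the set described, and both kinds stood above the level allowed by a count of 0 in dataset 1 only. Of 676 contigs, 11 were named IGH, IGK or IGL (1.63%, 0.815 to 2.89) and 7 had no chain name (1.04%, 0.417 to 2.12). The other libraries listed 0 of either kind, which allows up to 0.375% of the 800 contigs of dataset 2 and up to 0.182% of the 1648 without uveitis. All 18 had 1 UMI, from 305 to 675 reads, and none of the immunoglobulin contigs was productive. With the TRG, TRD and Multi contigs that named an immunoglobulin constant segment, they lay in 16 of 212 cells (7.55%, 4.38 to 12.0), of which 7 had a productive TRA and TRB.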

How the results depend on the processing

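Of 78 values recomputed under alternatives, 49 moved by less than their interval or, for the combined pools, 1 SD, and 29 moved further. These counts are no measure of robustness, because some outcomes were fixed by the setting. UMIs as percent of the barcode were held against an interval in UMIs. A filter of at least 2 UMIs has to raise a median of 1, and counting the D segment could change nothing because none was named. With at least 2 UMIs per contig, contigs per 100 barcodes were 6.60 in dataset 1, 0.548 in dataset 2 and 8.98 without uveitis, and with full-length contigs alone 0, 0.274 and 1.37 in dataset 1, dataset 2 and without uveitis. Some alternatives were chosen after seeing the data: without TRG, TRD and immunoglobulin-bearing contigs, dataset 1 had 19.3 per 100 barcodes (1.10 in dataset 2 and 21.1 without uveitis) and the paired share of the combined uveitis pools was 77.8%, and with immunoglobulin loci counted the mixed share was 81.6% in dataset 1 and 79.2% combined. That paired share, 72.2% for the combined pools before any alternative, was 64.8% with at least 2 UMIs in TRA and TRB. It was 75.0% with at least 2 UMIs per contig. From V and J alone the mixed share was 100% of 1, 2, 7 and (combined) 3 contigs that name both, and with at least 2 UMIs it was 97.8% without uveitis. Median UMIs with at least 2 per contig were 2.5 in dataset 1, 3 without uveitis and 3 combined, and as percent of the barcode's UMIs 7.14 in dataset 1, 15.6 in dataset 2, 5.56 without uveitis and 7.14 combined. With at least 2 UMIs, V and J were both named in 0% of contigs in dataset 1 and 13.0% without uveitis, beside 1.82% and 6.48%. Leaving out dataset 1 or dataset 2 gave combined values of 1.10 to 25.9 contigs per 100 barcodes, 72.0 to 75.0% paired, 50 to 65.3% mixed, medians of 1 to 2 UMIs, and 1.82 to 50% with V and J. Dataset 1 was above the library without uveitis as reported and below it under these settings of contigs per 100 barcodes and in paired barcodes alone (20.5 and 21.1), and the cause was not tested. The cause of the other shifts was not tested beyond the contigs each setting leaves. No paired analysis was possible because the pools share no animals and no test was made. Contigs of 1 UMI, and 4 contigs in dataset 2, limit the depth.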
